A study of Mus musculus with 18 samples.

Results

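Microglia and macrophages that had been sorted from the same injured spinal cords after an injection of PBS were compared across all genes. The comparison holds 6 of the 18 libraries of the series, and its unit is the mouse, because each of the 3 PBS mice gave a library of microglia and a library of macrophages. All animals were adult female C57BL/6J mice with a contusion of the thoracic cord. The PBS group received the vehicle into the lesion 48 h after injury, and cells were collected 24 h later, so that no uninjured cord and no uninjected cord enters the comparison. Both populations were gated as CD11b+ F4/80+ cells, with CD45low cells taken as microglia and CD45high cells as macrophages, after myelin had been depleted with magnetic beads. The other 12 libraries come from 3 mice given IL-13 and 3 mice given IL-4 by the same route, and they are used here to follow single genes and gene lists in further animals. Of 53465 genes in the table, 14715 passed the filter on low counts and were tested.

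Microglia are the resident macrophages of the nervous system. They are seeded from the yolk sac, renew themselves by division and depend on TGF-beta and CSF1R signalling for their resting gene programme, of which Sall1, P2ry12 and Tmem119 are the usual markers. After a spinal cord injury, monocytes enter from the blood through CCR2, become phagocytic macrophages and take up myelin and red cells. Fibroblasts and cells of the vessel wall (endothelial cells, pericytes and smooth muscle) multiply in the same lesion, build its collagen-rich scar and express none of the defining genes of either myeloid population. Expression level is given throughout as CPM, the counts of a gene relative to the library's total, after scaling by the trimmed mean of M-values (TMM), and the summed level of a list as CPM of the library total. A difference is the log2 of microglia over macrophages from a paired fit of edgeR's quasi-likelihood test, a positive value is higher in microglia, and "called" means a Benjamini-Hochberg adjusted p under 0.05 over all 14715 genes. An SE is the size of the log2 difference divided by the square root of the F of that test. It can understate the error of genes with few counts in a cell type.

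The 6 PBS libraries held 36445342 to 39463858 counts each, and between 17553 and 18371 genes had a count in each. The sorting markers ran with the labels. CD45 is encoded by Ptprc (chr1:138062861-138175708), which stood at 157, 107 and 159 CPM in the microglia of mice 1, 2 and 3 and at 375, 356 and 331 CPM in their macrophages. The gate was set on this protein, so the difference of -1.35 (SE 0.15) checks the labels and is no finding. The other markers of the gate were present in every library. Itgam, which encodes CD11b, was at 593, 430.1 and 741 CPM in microglia and 918, 965 and 995 CPM in macrophages (adjusted p 0.00706), and Adgre1, which encodes F4/80, at 373, 309 and 439 and 709, 647 and 719 CPM (adjusted p 6.48e-04). Transcripts of the mitochondrial genome took 2.18% to 3.01% of the counts in microglia and 0.532% to 0.745% in macrophages, with no overlap. None of the 10 genes of the lymphocyte list reached the filter.

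In all, 5912 of 14715 genes (40.2%) differed between PBS microglia and PBS macrophages. Of these, 3454 genes (23.5% of those tested) were higher in microglia and 2458 (16.7%) were higher in macrophages, and all 5912 had the same sign in each of the 3 mice. Without regard to the test, the 3 libraries of one cell type did not overlap those of the other for 4424 genes higher in microglia (30.1%) and 3587 higher in macrophages (24.4%). Both sides of this result were of unlike size. Genes higher in microglia had a median log2 difference of 3.14, or 2.94 once the 604 of them with at most 3 macrophage counts were set at the bound that 3 counts per library allow, and genes higher in macrophages had a median of -0.997. A difference of 32-fold or more was fitted for 1225 genes in microglia (868 at the bound) and for 107 in macrophages (52 at the bound). Differences under 4-fold made up 1217 of the calls in microglia and 1926 of those in macrophages. The scaling moves this split. With library totals alone, which shift the median of all genes to 0.33, 4641 genes were called higher in microglia and 1397 in macrophages, and with scaling on the genes of the pan-myeloid list other than Ptprc, which shifts it to 0.65, 6246 and 872. That scaling sets these genes as equal on balance, although 11 of the 16 on the list were higher in macrophages here (median -0.82) and some encode markers of the gate. DESeq2 size factors gave 3477 and 2436.

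**Figure D1:**
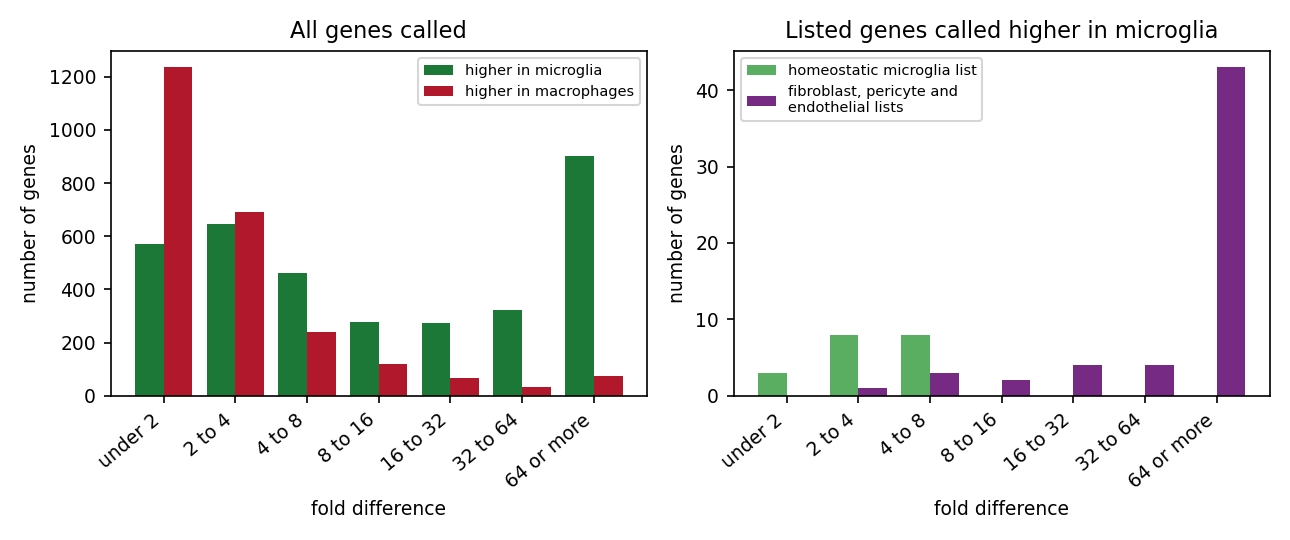
Left, number of genes called in PBS microglia against PBS macrophages by fitted fold difference, in green for genes higher in microglia and in red for genes higher in macrophages. Right, the same axis for listed genes called higher in microglia, with 19 genes of the homeostatic microglia list in light green and 57 genes of the fibroblast, pericyte and endothelial lists in purple. No homeostatic gene differed by 8-fold or more, and 43 of the 57 vascular and fibroblast genes differed by 64-fold or more. Of all 3454 genes higher in microglia, 902 did so (483 at the bound of 3 counts per library). Many of the 57 passed the filter on low counts only through the microglia, so that nothing is read from this contrast.

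The genes with which microglia are usually recognised were higher in the microglia by modest factors. Of 24 homeostatic microglia genes, all tested, 19 were higher in microglia and 4 in macrophages, beside 23.5% and 16.7% of all genes tested. Tgfbr1 was not called (log2 difference -0.75). The median of the list was 1.61, against 0.01 over all genes tested. The summed level of the list was 16439, 9875 and 15204 CPM of the library total in the microglia of mice 1, 2 and 3, and 6452, 4513 and 6176 in the macrophages. Within a mouse the sum was therefore 2.55-fold, 2.19-fold and 2.46-fold higher in microglia. In these bulk libraries, fewer microglia among the sorted cells and less microglial RNA per cell cannot be told apart. The study's methods report a high purity after sorting.

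Tmem119, a membrane protein of microglia (chr5:113793729-113800516), was at 649, 384 and 608 CPM in microglia and 220.3, 125 and 205 CPM in macrophages, a difference of 1.58 (SE 0.102, adjusted p 2.9e-05). P2ry12, the purinergic receptor that guides microglial processes (chr3:59216272-59262871), stood at 463, 175 and 389 CPM against 107, 40.8 and 92.7 CPM, a difference of 2.10 (adjusted p 1.23e-05). The groups did not overlap for either gene, as for 30.1% of all genes tested on this side. In both cell types the value of mouse 2 was the lowest, so that the ratio within a mouse varied far less than the level. Siglech, a lectin of the sialic acid-binding family, differed most within the list, at 319, 95.7 and 224 CPM against 35.8, 13.5 and 40.6 CPM (log2 difference 2.81, adjusted p 1.93e-05). Cx3cr1, the fractalkine receptor (chr9:119901616-120069879), was at 1909, 970.1 and 1826 CPM against 499.7, 274 and 537 CPM (log2 difference 1.84, adjusted p 1.63e-05). Fcrls, an Fc receptor-like gene, reached 1709, 923 and 1563 CPM against 531, 279 and 545 CPM. Macrophage libraries thus held every one of these transcripts, at 13.5 CPM or more for the genes named in this paragraph.

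The other way went 4 of the 24 listed genes, near the 16.7% of all genes tested that were higher in macrophages, so that no common trait is read from them. Abcc3, a transporter of organic anions, was at 73.01, 50.4 and 90.5 CPM in microglia and 410.1, 368 and 345 CPM in macrophages (log2 difference -2.43, adjusted p 6.22e-05). P2ry6, a receptor for nucleotides of dying cells, differed by -0.89 and the efferocytosis receptor Mertk by -0.57. Vsir, an inhibitory receptor, differed by -0.50. P2ry6 lost its call with scaling on the pan-myeloid list (-0.25, adjusted p 0.23). Mertk and Vsir also lost significance with library totals and were at 0.07 and 0.14 with that scaling, which moves all genes alike, so that it bears on any gene of so small a difference. Csf1r, the receptor on which microglia depend for survival, was higher in microglia, at 3419, 1752 and 3029 CPM against 1851, 1148 and 1647 CPM (log2 difference 0.79, adjusted p 9.62e-04).

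The promoters of P2ry12 and Cx3cr1 are shown because the 2 genes mark the microglial side of the comparison. The bases run 5′ to 3′ over the 250 bases before the annotated start (RefSeq, GRCm38.p6, minus strand for both, chr3:59262986-59263235 and chr9:120068297-120068546), and capitals mark CCAAT boxes in either orientation (CCAAT or its reverse complement ATTGG).
P2ry12: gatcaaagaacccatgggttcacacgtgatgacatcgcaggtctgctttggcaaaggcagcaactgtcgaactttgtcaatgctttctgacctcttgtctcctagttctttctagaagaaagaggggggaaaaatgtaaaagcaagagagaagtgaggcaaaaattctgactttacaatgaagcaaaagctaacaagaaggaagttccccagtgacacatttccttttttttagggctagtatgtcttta
Cx3cr1: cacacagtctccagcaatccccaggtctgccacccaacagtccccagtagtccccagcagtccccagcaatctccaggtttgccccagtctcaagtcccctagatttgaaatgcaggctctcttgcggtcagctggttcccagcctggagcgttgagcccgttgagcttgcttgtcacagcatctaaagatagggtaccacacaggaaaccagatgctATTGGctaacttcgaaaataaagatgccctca
The letters CCAAT were found on either strand before 37.5% of all 27025 genes with a promoter in the table and before 7 of the 16 homeostatic genes that matched (43.8%). The Cx3cr1 window holds them once, 32 bases before the start, and the P2ry12 window holds neither CCAAT nor the TATA box TATAAA nor the purine-rich motif GAGGAAGT to which the myeloid factor PU.1 can bind. This says only that these letters are absent from that window. RefSeq starts can lie inside the longer gene models whose positions are given here.

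**Figure D2:**
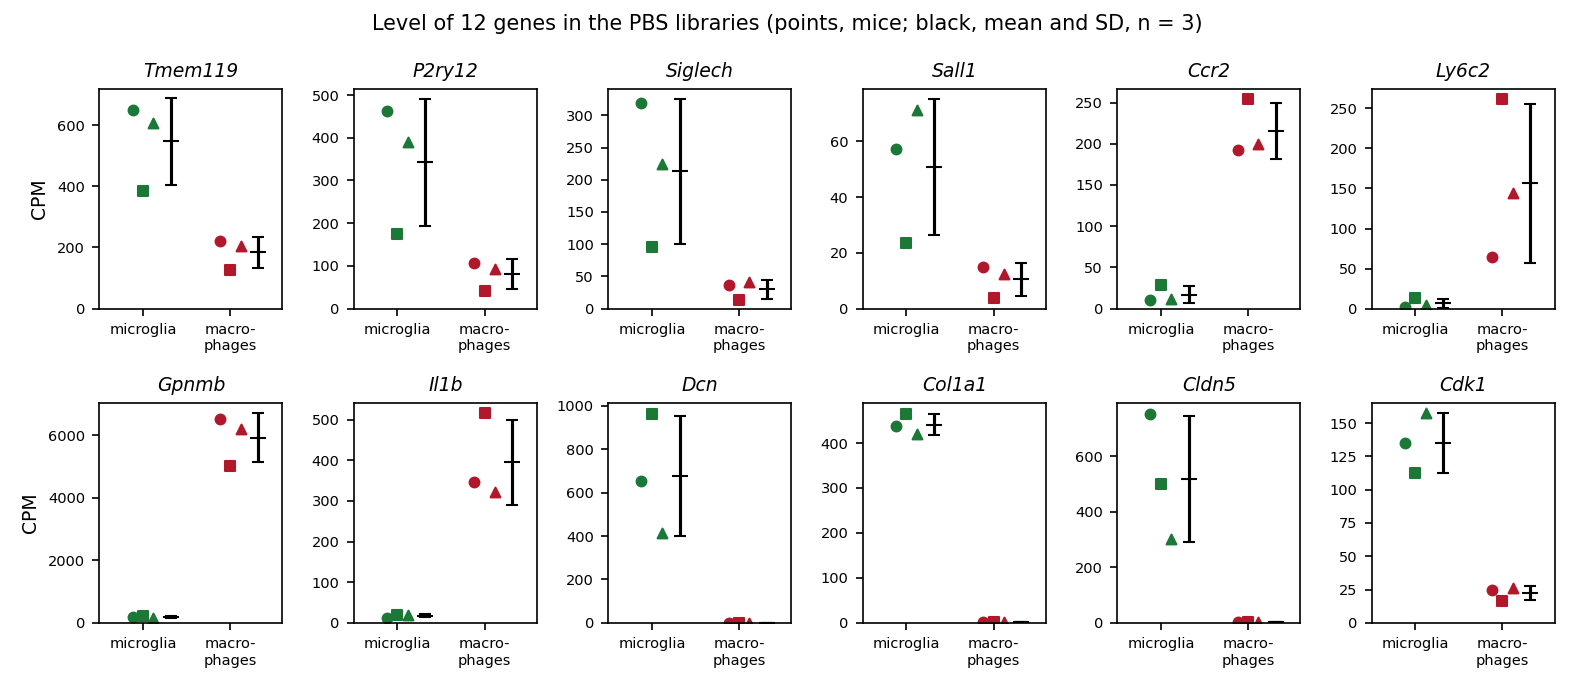
CPM of 12 genes in the 3 PBS microglia libraries (green) and the 3 PBS macrophage libraries (red), with circles, squares and triangles for mice 1, 2 and 3 and the mean with its SD (n = 3) in black. Every axis starts at 0. The macrophage libraries hold the microglial transcripts Tmem119 and P2ry12 at lower levels, while Dcn, Col1a1 and Cldn5 lie near 0 in them.

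Among 28 myeloid transcription factors, 4 were higher in microglia and 19 were higher in macrophages, beside 23.5% and 16.7% of all genes tested. Sall1, which maintains the microglial programme, was at 57.5, 23.7 and 71.3 CPM in microglia and 15.1, 3.88 and 12.5 CPM in macrophages (log2 difference 2.34, adjusted p 9.95e-05). Mef2c stood at 162, 109 and 145 CPM against 52.99, 34.1 and 39.96 CPM (log2 difference 1.71, adjusted p 5.04e-05). Smad3, which carries TGF-beta signals, and Bhlhe41 differed by 0.76 and 0.61, and both lost the call when all 18 libraries were fitted together (adjusted p 0.083 and 0.070). On the macrophage side were Nr1h3, which encodes the oxysterol receptor LXR-alpha, at 5.18, 9.51 and 6.45 CPM in microglia and 54.5, 63.4 and 66.1 CPM in macrophages (log2 difference -3.16), and Nr4a1 (-2.87). Spic, the factor of heme-handling macrophages, had no count in the microglia and averaged 1.12 CPM in macrophages, which is at least 16-fold higher when 3 counts per library are taken as the floor. With scaling on the pan-myeloid list, 6 of these factors were called higher in microglia and 8 in macrophages.

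Genes of monocytes and of the macrophages that derive from them were mostly higher in macrophages. Of 29 such genes, all tested, 28 were higher in macrophages, none was higher in microglia and Ifitm3 was not called (log2 difference -0.40), with a median of -2.88, beside 16.7% of all genes tested that were higher in macrophages. Their summed level was 37926, 36411 and 36578 CPM of the library total in the macrophages of mice 1, 2 and 3 and 4692, 7287 and 5669.6 in the microglia. Ccr2, the receptor through which monocytes leave the blood (chr9:124101950-124113557), was at 192, 254 and 199.8 CPM in macrophages and 10.4, 28.7 and 11.3 CPM in microglia (log2 difference -3.83, adjusted p 2.45e-05). Ly6c2, which marks inflammatory monocytes, ranged from 64.3 to 261 CPM in macrophages and from 1.58 to 12.9 CPM in microglia (log2 difference -4.85). Its reads may be shared with the near-identical Ly6c1. Both genes were highest in mouse 2 in either cell type, the mouse in which the homeostatic sum was lowest. Chil3, a chitinase-like protein of monocytes and alternatively activated macrophages, reached 1568, 3855 and 3000.2 CPM against 50.9, 254 and 81.6 CPM. Thbs1, a matrix protein with roles in adhesion and TGF-beta activation, reached 9514, 7312 and 5761 CPM against 105, 328 and 215 CPM (log2 difference -5.22, adjusted p 7.48e-05). The lysozyme gene Lyz2 was at 21114, 18191 and 21424 CPM against 2295, 2858 and 2417 CPM.

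**Figure D3:**
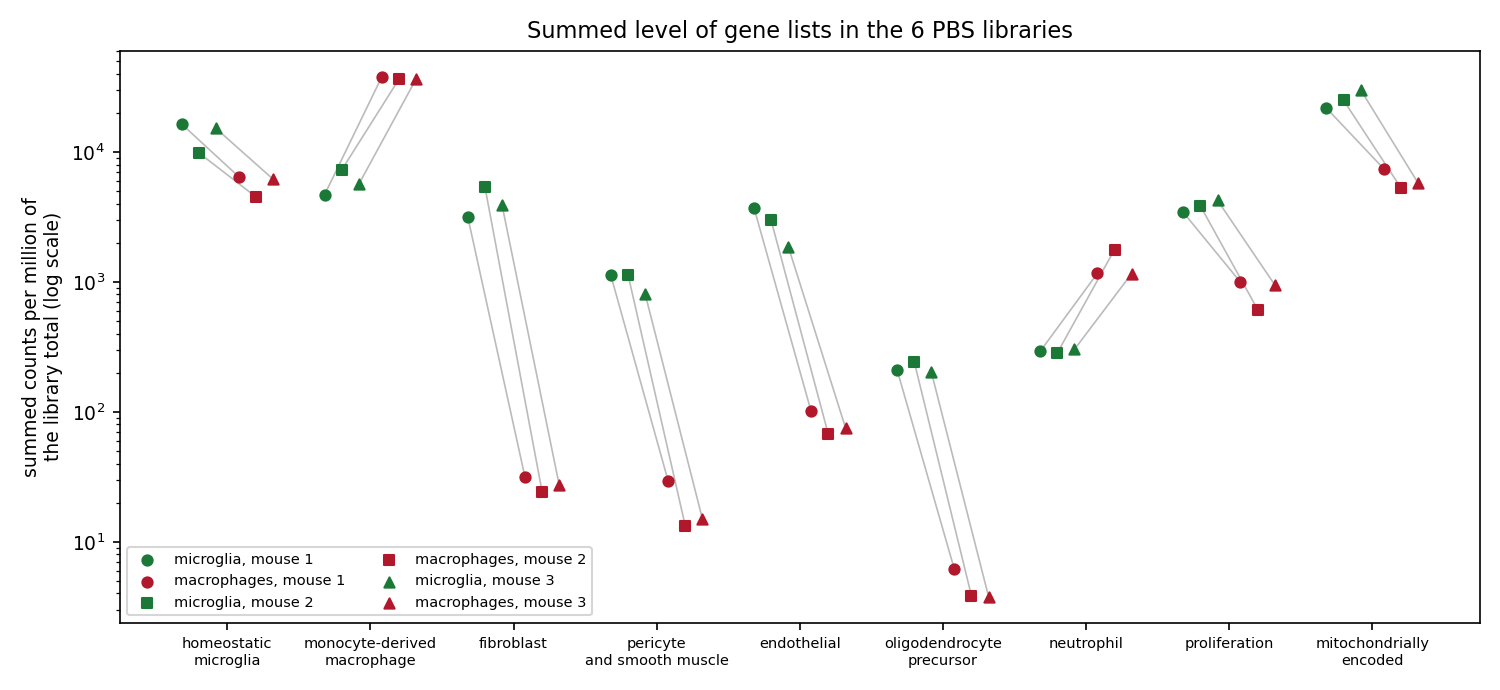
Summed level of 9 gene lists as CPM of the library total, on a log axis, for the 3 PBS microglia libraries (green) and the 3 PBS macrophage libraries (red), with a line joining the libraries of a mouse. The homeostatic sums of the 2 cell types differ by less than 3-fold within each mouse, while the fibroblast sums lie between 3177 and 5407 in microglia and between 24.1 and 31.6 in macrophages.

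The 12 genes with the lowest p on the macrophage side were Ms4a7, Ccrl2, Rgs1, Il7r, Gpnmb, Psap, Nceh1, Il1b, Clec4n, Pla2g7, F7 and Ccl2. Ms4a7, a tetraspan protein of macrophages that is scarce in resting microglia, stood at 180.0, 233 and 245 CPM in macrophages and 15.6, 19.1 and 19.6 CPM in microglia (log2 difference -3.60, SE 0.12, adjusted p 3.14e-06). Gpnmb, a glycoprotein of lipid-loaded phagocytes, reached 6498, 5019.6 and 6201 CPM against 177, 225 and 161 CPM (log2 difference -4.98, SE 0.19). The interleukin-7 receptor gene Il7r was at 174, 205 and 202 CPM against 7.45, 9.995 and 6.52 CPM. F7 and F10, which encode coagulation factors VII and X, were at 157, 179.6 and 202 and 212, 279.8 and 250.2 CPM in macrophages, against 3.43, 7.196 and 5.06 and 4.69, 22.1 and 5.49 CPM in microglia. Itgb7, an integrin subunit of leukocyte homing, was at 170.2, 245 and 204 CPM against 3.87, 8.38 and 2.12 CPM (log2 difference -5.59). The groups did not overlap for the genes whose values are given here, as for 24.4% of all genes tested on this side.

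Some genes of antigen presentation and inflammation were also higher in macrophages. Of 9 MHC class II genes, 5 were higher in macrophages (H2-Aa, H2-Ab1, H2-Eb1, Cd74 and Ciita), beside 16.7% of all genes tested. The other 4, which encode H2-DM and H2-O chains, were not called. H2-Ab1 was at 284, 177 and 199 CPM in macrophages and 12.7, 18.2 and 8.99 CPM in microglia (log2 difference -4.08, adjusted p 3.12e-05), and H2-Eb1 at 264, 166 and 188 CPM against 4.47, 10.2 and 2.45 CPM. Reads may be shared among the class II genes. Of 6 tested genes on the dendritic cell list, 4 were higher in macrophages, beside 16.7% of all genes tested. Of these, Cd209a and Ccr7 had no count in microglia and at most 3.91 CPM in a macrophage library, which is at least 46.6-fold and 28.1-fold higher with a floor of 3 counts per library, and the part of such cells in the MHC class II difference was not tested. Of 15 inflammatory cytokine genes, 6 were higher in macrophages and 3 in microglia, beside 16.7% and 23.5% of all genes tested. Il1b was at 348, 516 and 321 CPM in macrophages and 12.6, 20.3 and 19.1 CPM in microglia (log2 difference -4.51, adjusted p 4.97e-06). Its natural antagonist Il1rn was at 248, 163 and 276 CPM against 16.9, 19.7 and 13.2 CPM, and Osm, which encodes oncostatin M, at 359.7, 361 and 339.5 CPM against 15.9, 30.3 and 30.1 CPM. Tnf differed less, by -1.96, from 36.5, 27.97 and 23.6 CPM in microglia to 119, 138 and 85.9 CPM in macrophages. On the microglial side were Igf1, the insulin-like growth factor of microglia and macrophages, at 80.3, 106 and 90.2 CPM against 41.4, 28.3 and 33.7 CPM (log2 difference 1.42), and Pdgfb, which endothelium uses to recruit pericytes, at 14.5, 9.32 and 6.59 CPM against 1.53, 1.396 and 1.44 CPM. With scaling on the pan-myeloid list, 6 cytokine genes were called higher in microglia and 5 in macrophages.

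The promoter of Il1b is shown because the gene is among the largest cytokine differences on the macrophage side (chr2:129371140-129371389, minus strand, with the TATA box in capitals).
Il1b: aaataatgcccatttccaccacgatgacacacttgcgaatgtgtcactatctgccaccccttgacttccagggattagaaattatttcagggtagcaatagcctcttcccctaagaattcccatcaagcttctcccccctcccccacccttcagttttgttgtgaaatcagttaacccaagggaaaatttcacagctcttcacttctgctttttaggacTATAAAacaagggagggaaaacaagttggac
The TATA box TATAAA starts 31 bases before the start of Il1b. The same letters lie on either strand before 14.3% of all genes with a promoter.

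Of 19 chemokine genes tested, 12 were higher in macrophages and 2 in microglia, beside 16.7% and 23.5% of all genes tested, and with scaling on the pan-myeloid list 8 and 3. The monocyte attractants Ccl2 and Ccl7 were at 496, 777 and 665 and 349.5, 602 and 481 CPM in macrophages, against 56.1, 108 and 67.6 and 24.4, 64.1 and 33.3 CPM in microglia. Ccl12, a further ligand of CCR2, went the other way by 1.12 (adjusted p 0.011), at 49.1, 56.3 and 55.8 CPM in microglia and 13.4, 37.5 and 29.7 CPM in macrophages. The second gene on the microglial side was Cxcl12, the stromal ligand of CXCR4, at 212, 235 and 165 CPM against 1.11, 0.993 and 0.144 CPM (log2 difference 8.18). Among 10 chemokine receptors, 7 were higher in macrophages. Ccr1 was at 339.9, 463 and 373 CPM against 57.6, 67.7 and 88.5 CPM and Cxcr4 at 56.6, 26.4 and 32.4 CPM against 1.75, 2.65 and 1.01 CPM. Cx3cr1 and the scavenging receptor Ackr3 (34.8, 31.5 and 35.9 CPM in microglia, 4.54, 10.2 and 5.68 CPM in macrophages) were higher in microglia. Toll-like receptor genes were higher in macrophages in 11 of 13 cases (6 with scaling on the pan-myeloid list), among them the co-receptor Cd14 at 617, 700.1 and 594 CPM against 144, 162 and 153 CPM, and Tlr3 was higher in microglia (1.23, adjusted p 0.00216).

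Neutrophil genes were in the macrophage libraries as well. The gate takes F4/80+ cells and leaves F4/80- neutrophils out. All 12 tested genes of 14 on the neutrophil list were higher in macrophages (median -3.75), beside 16.7% of all genes tested, and the primary granule genes Elane and Mpo did not pass the filter. Their summed level was 1163, 1775 and 1159 CPM of the library total in macrophages and 292, 284 and 303 in microglia. Mouse 2 was highest among the macrophages, as it was for Ly6c2. S100a8, an alarmin of neutrophils and monocytes (chr3:90668978-90670035), was at 212, 479 and 216 CPM in macrophages and 13.6, 31.2 and 22.9 CPM in microglia, and the collagenase Mmp8 at 168, 299.7 and 252 and 3.48, 19.5 and 6.004 CPM. Over the 9 macrophage libraries of the series, less their treatment means, Il1b had r = 0.93 with the neutrophil list, Ccr2 0.80 and Ly6c2 0.80, while Thbs1 had -0.35 and Lyz2 -0.89. Without IL-13 mouse 6, the library with the highest neutrophil sum, these were 0.80, 0.50, 0.63, -0.43 and -0.67. Over all 29 monocyte genes the median r was 0.72, or 0.56 without that library. The part of neutrophil RNA in the differences of these genes was not tested. The S100a8 promoter is shown because the motif GAGGAAGT lies before 5 of the 13 neutrophil genes that matched (38.5%) and before 2.79% of all genes with a promoter. Capitals mark its reverse complement and the TATA box (chr3:90668821-90669070, plus strand).
S100a8: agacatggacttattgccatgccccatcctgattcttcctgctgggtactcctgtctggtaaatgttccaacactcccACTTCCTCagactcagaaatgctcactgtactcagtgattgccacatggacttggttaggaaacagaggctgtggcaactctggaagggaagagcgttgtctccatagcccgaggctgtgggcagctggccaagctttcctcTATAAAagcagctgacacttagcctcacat
In this window the motif starts 172 bases and the TATA box 30 bases before the start.

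Transcripts of fibroblasts and vessels had the largest median differences of all lists examined, on the microglial side. Of 27 fibroblast genes, 26 were tested and 25 were higher in microglia, with a median of 7.90 (7.65 with genes of at most 3 macrophage counts at their bound). Twist1 did not pass the filter, and Col14a1 was not called (log2 difference -0.46). All 14 pericyte and smooth muscle genes and all 18 endothelial genes were higher in microglia, with medians of 7.33 and 7.11. Of all tested genes 23.5% were higher in microglia, but many of these members passed the filter on low counts only through the microglia, where they are high, so that nothing is read from the shares. With at least 10 counts asked for in every library, 13 fibroblast, 4 pericyte and 13 endothelial genes could be tested, of which 12, 4 and 13 were higher in microglia.

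The collagen and proteoglycan genes of fibroblasts named next stood at 1.95 CPM or less in every macrophage library. Dcn, which encodes the proteoglycan decorin (chr10:97479609-97518143), was at 655, 964 and 413 CPM in microglia and 0.572, 0.838 and 0.404 CPM in macrophages, a difference of 10.11 (SE 0.16, adjusted p 4.44e-07), the lowest p of all genes. Col1a1 and Col1a2 encode the chains of collagen I. Col1a1 (chr11:94936224-94953042) was at 437, 465 and 421 CPM against 1.29, 1.95 and 1.297 CPM (log2 difference 8.20), and Col1a2 (chr6:4504814-4541544) at 306, 398 and 416 CPM against 0.812, 1.12 and 0.894 CPM (log2 difference 8.63). Col3a1, the chain of collagen III, was at 468, 938 and 810.2 CPM against 1.38, 1.95 and 0.605 CPM, and the proteoglycan gene Bgn at 274, 530.1 and 421 CPM against 0.421, 0.714 and 0.404 CPM.

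Cldn5, a tight junction protein of endothelium (chr16:18776847-18778262), was at 754, 500.2 and 301 CPM in microglia and 3.61, 1.71 and 2.28 CPM in macrophages (log2 difference 7.64, adjusted p 3.14e-06). Tek, the angiopoietin receptor, was at 117, 79.4 and 75.6 CPM against 0.391, 0.527 and 0.404 CPM. Pecam1, which leukocytes also express, was at 337, 278 and 139.8 CPM against 10.6, 7.66 and 8.25 CPM, and differed less than the other vessel genes named here (4.75). Pdgfrb, the receptor of pericytes, stood at 76.5, 62.03 and 60.6 CPM against 0.602, 0.06205 and 0.231 CPM, and the smooth muscle actin gene Acta2 at 197, 242 and 185 CPM against 6.59, 6.298 and 8.01 CPM (log2 difference 4.90). Myh11, the myosin heavy chain of smooth muscle, was at 56.3, 26.9 and 33.5 CPM in microglia and had 2 counts in the 3 macrophage libraries together. Among the microglia, Cldn5 and Tek were highest in mouse 1, and Dcn, Col3a1 and Bgn in mouse 2.

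The promoters of Col1a2 and Cldn5 are shown as those of a fibroblast gene and an endothelial gene read in a myeloid sort (chr6:4505368-4505617 and chr16:18776597-18776846, both plus strand, with CCAAT or ATTGG in capitals).
Col1a2: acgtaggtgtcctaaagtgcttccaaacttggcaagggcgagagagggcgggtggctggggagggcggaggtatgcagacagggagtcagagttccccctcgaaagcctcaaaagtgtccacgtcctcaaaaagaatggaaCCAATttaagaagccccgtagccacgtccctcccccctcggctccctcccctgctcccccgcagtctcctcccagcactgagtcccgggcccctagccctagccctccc
Cldn5: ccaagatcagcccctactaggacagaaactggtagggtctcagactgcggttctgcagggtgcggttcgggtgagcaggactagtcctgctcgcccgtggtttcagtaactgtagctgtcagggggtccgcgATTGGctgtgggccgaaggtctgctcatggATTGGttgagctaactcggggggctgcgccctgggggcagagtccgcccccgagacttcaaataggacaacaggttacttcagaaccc
The CCAAT box starts 109 bases before the start of Col1a2, and 2 inverted boxes start 118 and 88 bases before that of Cldn5. On either strand CCAAT lay before 3 of 18 matched fibroblast genes (16.7%) and before 5 of 12 matched endothelial genes (41.7%), beside 37.5% of all genes.

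Summed over the 3 lists, fibroblast and vessel genes took 8036, 9531 and 6569 CPM of the library total in the microglia of mice 1, 2 and 3 and 162, 105 and 118 in the macrophages. These sums did not overlap between the cell types. Lists of cells of the cord itself had smaller median differences. Their counts stand beside 23.5% of all tested genes higher in microglia, and here too members could pass the filter through the microglia alone. All 7 genes of oligodendrocyte precursors were higher in microglia (median 5.33), with Olig1 at 72.6, 89.8 and 57.2 CPM against 3.19, 2.23 and 1.095 CPM. Of 11 astrocyte genes tested, 10 were higher in microglia, and Gfap stood at 30.03, 27.8 and 31.3 CPM against 6.05, 2.23 and 5.304 CPM. Of 8 tested oligodendrocyte genes, 6 were higher in microglia, while Mbp was not called. Few neuronal genes were measured, since 6 of 15 passed the filter and 4 of these were higher in microglia. Of 5 tested Schwann cell genes, 4 were higher in microglia and Egr2, a transcription factor gene that macrophages also express, in macrophages (log2 difference -1.97). Of 8 tested erythroid and platelet genes, 6 were higher in microglia and Ppbp, a platelet chemokine, in macrophages (-2.54), with the beta-globin gene Hbb-bs, not called when all 18 libraries were fitted together, at 54.4, 57.8 and 34.8 CPM against 7.31, 8.25 and 2.77 CPM. Globin genes share reads with near-identical copies.

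Genes on no list of other cells were then ranked by size among those with at least 100 CPM. The 12 largest differences on the microglial side belonged to Smoc2, Sfrp4, Ctgf, Prg4, Mgp, Serping1, Timp3, Fstl1, Igfbp7, Tm4sf1, Cxcl12 and Igfbp3. Smoc2, a matricellular protein, was at 27.9, 147 and 229 CPM in microglia and had 2 counts in the 3 macrophage libraries together. Sfrp4, a secreted Wnt antagonist, was at 47.9, 151 and 373 CPM against 0, 0.155 and 0.0577 CPM. Prg4, the lubricating proteoglycan of joints and meninges, was at 54.6, 332 and 48.1 CPM against 0.0903, 0.248 and 0.144 CPM, and its level in mouse 2 stood apart from that in the other mice. The protease inhibitor Timp3 was steadier, at 319, 306 and 196 CPM against 0.752, 0.372 and 0.577 CPM. For comparison, the largest difference among the homeostatic genes was that of Siglech (2.81).

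The microglia libraries of the whole series differ among themselves in how much of each non-myeloid RNA they hold, which allows a description of which genes vary together. Summed fibroblast genes ranged from 495 to 13969 CPM of the library total over the 9 microglia libraries and the highest was that of IL-13 mouse 6, outside this comparison. For each gene, log2 levels less the mean of the treatment were correlated with the mean of a list over these 9 libraries. All lists share the same libraries, and shares of a fixed total must trade against each other, so that no p is given. The fibroblast genes followed the rest of their own list (median r = 0.88) and the endothelial genes theirs (0.77), while the fibroblast genes had a median r of -0.55 with the endothelial list, or -0.27 without IL-13 mouse 6. The homeostatic genes followed each other (0.93), as did the genes of the pan-myeloid list, which was written for both populations (0.85 with the homeostatic list). Against the fibroblast list the homeostatic genes had a median r of -0.50. This last value rests on the same library and was 0.02 over the other 8 libraries, in which the fibroblast, endothelial and homeostatic genes kept a median r of 0.82, 0.83 and 0.85 with their own lists.

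**Figure D4:**
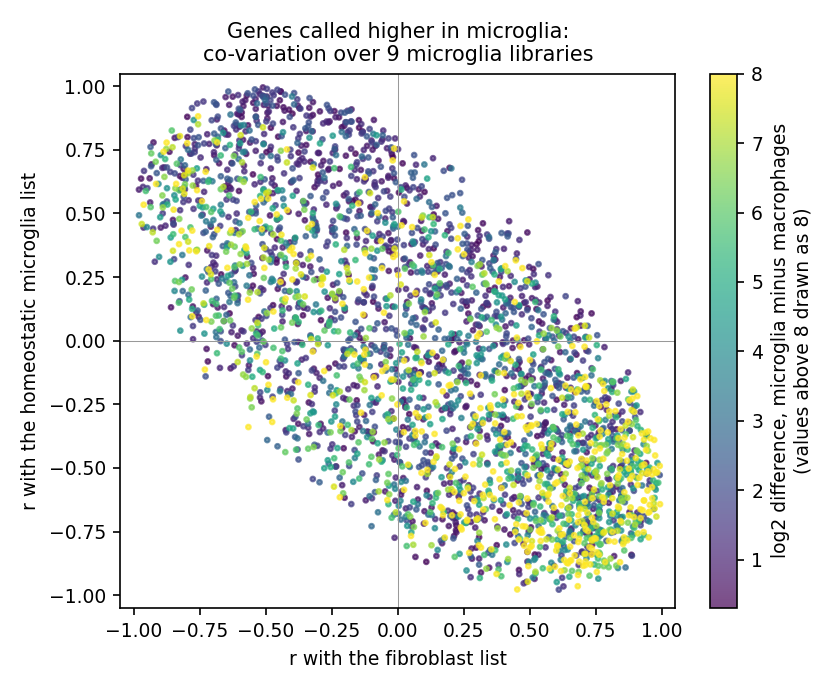
Each point is a gene called higher in PBS microglia with a mean of at least 1 CPM over the microglia libraries. The axes give its correlation with the fibroblast list and with the homeostatic microglia list over 9 microglia libraries, less treatment means, and the colour gives the log2 difference between microglia and macrophages. Of the genes with a difference of 32-fold or more (toward yellow), 13.5% reach r = 0.8 with the fibroblast list and 0.598% with the homeostatic list. Members of the lists are included, and no homeostatic list gene differed by 32-fold or more.

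Shares of genes along these correlations are given by size of the difference, as a description without a test. Many genes of large difference passed the filter on low counts through the microglia alone. The PBS microglia libraries also enter both measures. Of 1004 genes that were 32-fold or more higher in microglia and had at least 1 CPM, 136 (13.5%) reached r = 0.8 with the fibroblast list, 52 (5.18%) with the endothelial list and 6 (0.598%) with the homeostatic list. Of 1217 genes that were higher by less than 4-fold, the same counts were 50 (4.11%), 25 (2.05%) and 107 (8.79%). Over all 12736 genes at that level they were 413 (3.24%), 194 (1.52%) and 616 (4.84%). Members of the lists were not left out of these sets. The 32-fold set holds 22 genes of the fibroblast list and 13 of the endothelial list. No homeostatic list gene differed by that much, so that part of this contrast was fixed in advance. Without IL-13 mouse 6 the shares at 32-fold or more were 9.56%, 6.77% and 0.398%. The shares over all genes above are from 9 libraries and are no background for these. The threshold of 0.8 was chosen after the values had been seen.

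Protein-coding genes on no list that were called higher in PBS microglia were then assigned by the same measure, with r of at least 0.8 over 9 and over 8 libraries and under 0.5 with both other lists. This gave 119 genes that followed the fibroblast list, 48 that followed the endothelial list and 63 that followed the homeostatic list. Since only called genes were taken, their differences are a description of these sets. The median log2 differences between PBS microglia and macrophages were 5.25, 5.44 and 1.02. Less than 8-fold was fitted for 27.7% of the fibroblast, 31.2% of the endothelial and 98.4% of the homeostatic followers. Genes could pass the filter on low counts through the microglia alone, and these sizes are not held at the bound of few macrophage counts. Nothing is therefore read from the contrast in size between the sets. The most abundant homeostatic followers included Cst3, which encodes cystatin C, at 3443, 1750.3 and 2422 CPM in microglia and 1079, 998 and 1277 CPM in macrophages, and Ly86, which encodes the partner MD-1 of a Toll-like receptor relative, at 917, 457 and 892 and 236, 151 and 299.5 CPM. The membrane-curving protein gene Bin1 was at 459.9, 326 and 443 CPM against 196, 203 and 201 CPM, and the steroid transporter gene Slco2b1 at 450.3, 211 and 354 CPM against 114, 37.7 and 82.5 CPM. The most abundant fibroblast follower was Slc25a4 (r = 0.95), at 182, 202 and 182 CPM against 80.0, 68.4 and 79.5 CPM. Acat1 and Hnrnpr, which differed by 0.81 and 0.45, were in the same set. Following the list thus does not mark a gene as one of fibroblasts alone. Less abundant in this set was Pcolce, an enhancer of procollagen processing (r = 0.99), at 73.7, 113 and 88.1 CPM against 0.1505, 0.0931 and 0.0288 CPM. Among the endothelial followers was Abcg2, an efflux pump of brain vessels (r = 0.96), at 149, 101 and 87.05 CPM against 13.8, 8.097 and 11.1 CPM. These genes were picked after their values had been seen.

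Some genes of myeloid or immune lists varied with the stromal genes. Pros1, a bridging ligand for the receptor Mertk that stands on the homeostatic list, was at 349, 295 and 324 CPM in microglia and 111, 57.4 and 85.3 CPM in macrophages (1.98), and had r = 0.85 with the fibroblast list and -0.32 with the homeostatic list, but 0.67 and 0.59 without IL-13 mouse 6, so that this measure does not place it. The complement gene C4b, a component of the classical pathway, was higher in microglia by 1.602 and had r = 0.69 with the fibroblast list (0.40 without IL-13 mouse 6). Reads of C4b may be shared with its copy C4a. The chemokine gene Cxcl12 had r = 0.92 with the fibroblast list (0.84 without that library). The subunits of C1q behaved otherwise. C1qa was at 2051, 1428 and 1745 CPM against 991, 898 and 1034 CPM and C1qc at 2589, 1847 and 2302 CPM against 1249.7, 1288 and 1462 CPM, with r = 0.86 and 0.94 with the homeostatic list (0.69 and 0.88 without that library). Il6 was called higher in microglia (1.89, adjusted p 0.039) at no more than 8.27 CPM, had r = 0.89 with the fibroblast list (0.72 without IL-13 mouse 6), and was not called without mouse 1, without mouse 2 or when all 18 libraries were fitted together. Slc2a1, the glucose transporter of the blood-brain barrier, was higher in microglia by 1.45 while most glycolysis genes were not, and had r = 0.94 with the endothelial list (0.98 without that library). The iron exporter gene Slc40a1 (172, 65.3 and 88.6 CPM against 33.1, 25.3 and 23.1 CPM) had r = 0.73 with the endothelial and 0.83 with the homeostatic list, and is not placed either.

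Most lysosome, lipid efflux and iron genes were higher in macrophages. The counts of each list in this paragraph stand beside 23.5% of all genes tested higher in microglia and 16.7% higher in macrophages. Of 24 lysosome genes, 20 were higher in macrophages and 2, among them Ctsf, were higher in microglia. Ctsb, the protease cathepsin B, was at 18541, 17238 and 18819 CPM in macrophages and 5302, 4798 and 5636 CPM in microglia (log2 difference -1.80), whereas the protease cathepsin F, encoded by Ctsf, was at 20.7, 7.54 and 18.4 CPM in macrophages and 98.6, 52.7 and 93.6 CPM in microglia (log2 difference 2.46). Psap, which encodes the activators of lysosomal lipid breakdown, was at 8382, 7501 and 7884 CPM against 1388, 1102 and 1236 CPM. Of 15 genes of lipid efflux and storage, 11 were higher in macrophages, among them the fatty acid-binding protein gene Fabp5 (2132, 2574 and 2819 CPM against 209.7, 324 and 213 CPM), and Lpl, which encodes lipoprotein lipase, was higher in microglia by 0.76. Of 15 iron and heme genes tested, 11 were higher in macrophages, with the ferritin light chain gene Ftl1 at 19282, 19918 and 18688 CPM against 7039.9, 7597 and 6627 CPM. Of 21 genes of damage-associated microglia, 12 were higher in macrophages and 5 in microglia. Lgals3, which encodes galectin-3, was at 2740.4, 3630.1 and 3493 CPM in macrophages against 298, 519.5 and 321 CPM, and Cst7, an inhibitor of cathepsins, went the other way, at 66.9, 48.7 and 64.9 CPM in microglia against 18.2, 8.904 and 15.9 CPM. Trem2 was not called. Of 21 scavenger and efferocytosis receptor genes, 8 were higher in microglia and 7 in macrophages, and of 13 complement genes, 5 and 7. Of 15 integrin genes, 3 were higher in microglia and 8 in macrophages, and of 20 sterol synthesis genes, 6 and 2, beside 23.5% and 16.7% of all genes tested. With scaling on the pan-myeloid list these counts became 6 and 6 for the integrins and 15 and 0 for sterol synthesis, and with library totals 5 and 6, and 10 and 1. Macrophages of the meninges and perivascular spaces share a marker list of 10 genes, of which 6 were higher in macrophages and Lyve1, also a gene of lymphatic endothelium, was at 7.28, 15.5 and 7.84 CPM in microglia and 3.91, 1.95 and 2.59 CPM in macrophages. That call was lost without mouse 2 (log2 difference 1.21, adjusted p 0.083) and when all 18 libraries were fitted together. The median of the damage-associated list, -0.59, turned to 0.05 with scaling on the pan-myeloid list, and those of glycolysis (-0.61) and of scavenger receptors (-0.38) turned to 0.03 and 0.26. The lysosome, lipid and iron medians kept their sign under the 4 other scalings tried, although scaling on the pan-myeloid list left 10 lysosome and 7 iron genes called higher in macrophages.

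The genes of DNA replication and mitosis were higher in microglia without exception. All 30 listed genes were called, beside 23.5% of all genes tested on this side, with differences from 0.75 (Pcna) to 2.72 (Cenpe), a median of 2.25 and summed levels of 3435, 3841 and 4236 CPM of the library total in microglia and 995, 613 and 948 in macrophages. Cdk1, the kinase that drives entry into mitosis (chr10:69335146-69352938), was at 135, 113 and 158 CPM in microglia and 24.3, 16.7 and 26.3 CPM in macrophages (log2 difference 2.60, adjusted p 1.23e-05). Ccna2, which encodes cyclin A2, was at 220.2, 191 and 247 CPM against 47.2, 22.9 and 45.1 CPM. Over the 9 microglia libraries the median r of these genes was 0.10 with the fibroblast list, -0.24 with the endothelial list and -0.02 with the homeostatic list, and the part of dividing stromal cells in the difference was not tested. No proliferation gene differed by 8-fold or more. Over the 9 macrophage libraries of the series, taken in the same way, the homeostatic genes followed the proliferation genes with a median r of 0.71, or 0.44 without PBS mouse 2 and 0.77 without IL-13 mouse 6.

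The promoters of Ccnb2 and Cdk1 are shown for this group of genes that moved together (chr9:70421555-70421804 and chr10:69352913-69353162, both minus strand, with CCAAT or ATTGG in capitals).
Ccnb2: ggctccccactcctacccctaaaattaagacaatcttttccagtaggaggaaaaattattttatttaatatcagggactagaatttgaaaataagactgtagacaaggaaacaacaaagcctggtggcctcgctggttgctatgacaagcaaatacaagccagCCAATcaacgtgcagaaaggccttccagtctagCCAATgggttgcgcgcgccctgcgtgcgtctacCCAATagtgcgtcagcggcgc
Cdk1: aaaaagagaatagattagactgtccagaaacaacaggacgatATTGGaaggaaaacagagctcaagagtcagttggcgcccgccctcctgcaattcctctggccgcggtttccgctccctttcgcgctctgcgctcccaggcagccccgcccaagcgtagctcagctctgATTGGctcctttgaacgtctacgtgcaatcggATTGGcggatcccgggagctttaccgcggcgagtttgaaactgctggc
Each window holds the box 3 times, 87, 54 and 21 bases before the start of Ccnb2, and 208, 80 and 48 bases before that of Cdk1. The letters were found before 22 of the 26 proliferation genes that matched (84.6%), beside 37.5% of all genes with a promoter and 40.3% of those among the tested genes. TATAAA was found before none of the 26. A match is a description of the sequence and no proof of a bound site.

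Immediate early genes, which respond within minutes to stimulation and to tissue dissociation, were higher in macrophages in 15 of 17 cases and higher in microglia in none, beside 16.7% and 23.5% of all genes tested. Fos was at 1493, 1605 and 1532 CPM in macrophages and 344, 328 and 264 CPM in microglia (log2 difference -2.31), and the phosphatase gene Dusp1 at 1036, 1266 and 1069 CPM against 201, 230.2 and 186 CPM. The part of handling during the sort in this difference was not tested. Of the 13 transcripts of the mitochondrial genome, 11 were higher in microglia (23.5% of all genes tested) and none in macrophages, with mt-Cytb at 3431, 3935 and 4568 CPM against 1139, 767 and 836 CPM. The part of stromal RNA in this difference was not tested. Of 21 interferon-stimulated genes, 10 were higher in macrophages (16.7% of all genes tested) and 11 were not called, and without the pairing by mouse 5 were called. Oas3, an activator of RNA decay, had the largest difference, at 20.9, 46.7 and 75.5 CPM in macrophages against 0.395, 3.72 and 5.86 CPM in microglia, and its values in either cell type were lowest in mouse 1 and highest in mouse 3. The median of this list was -0.55 and turned to 0.10 with scaling on the pan-myeloid list, with 5 genes then called higher in microglia and 2 in macrophages.

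The same within-mouse ratios were read in the 6 mice given a cytokine, whose libraries entered neither the fit nor the calls. Of 3454 genes higher in PBS microglia, 1910 (55.3%) had that sign in all 6 mice, and of 2458 genes higher in PBS macrophages, 1718 (69.9%). Among 8803 genes that were not called, 1362 (15.5%) had the sign of their PBS difference in all 6. Of the 19 and 4 homeostatic genes called, 21 kept their sign in all 6 mice, beside 26 of 28 monocyte genes, 23 of 25 fibroblast genes, 17 of 18 endothelial genes, 9 of 14 pericyte genes and all 30 proliferation genes. Of other lists, it was kept by 7 of 12 neutrophil, 3 of 6 oligodendrocyte, 2 of 10 interferon-stimulated and 1 of 7 erythroid and platelet genes. Of the 1225 genes higher in microglia by 32-fold or more, 560 (45.7%) kept it. The median within-mouse ratio of the homeostatic list was 1.59, 1.65 and 1.63 in PBS mice 1, 2 and 3, 1.89, 0.91 and 2.13 in IL-13 mice 5, 6 and 7 and 1.95, 2.05 and 2.15 in IL-4 mice 8, 9 and 10, on a scale of log2(CPM + 0.5), which understates the ratio of scarce transcripts. That of the fibroblast list was 5.43, 6.19 and 5.77, 5.85, 7.38 and 5.35 and 5.18, 4.91 and 3.62 in the same order. IL-13 mouse 6 had the lowest homeostatic and the highest fibroblast ratio of the 9. These ratios carry the difference between treatments as well as that between cell types, and no test between treatments was run here.

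**Figure D5:**
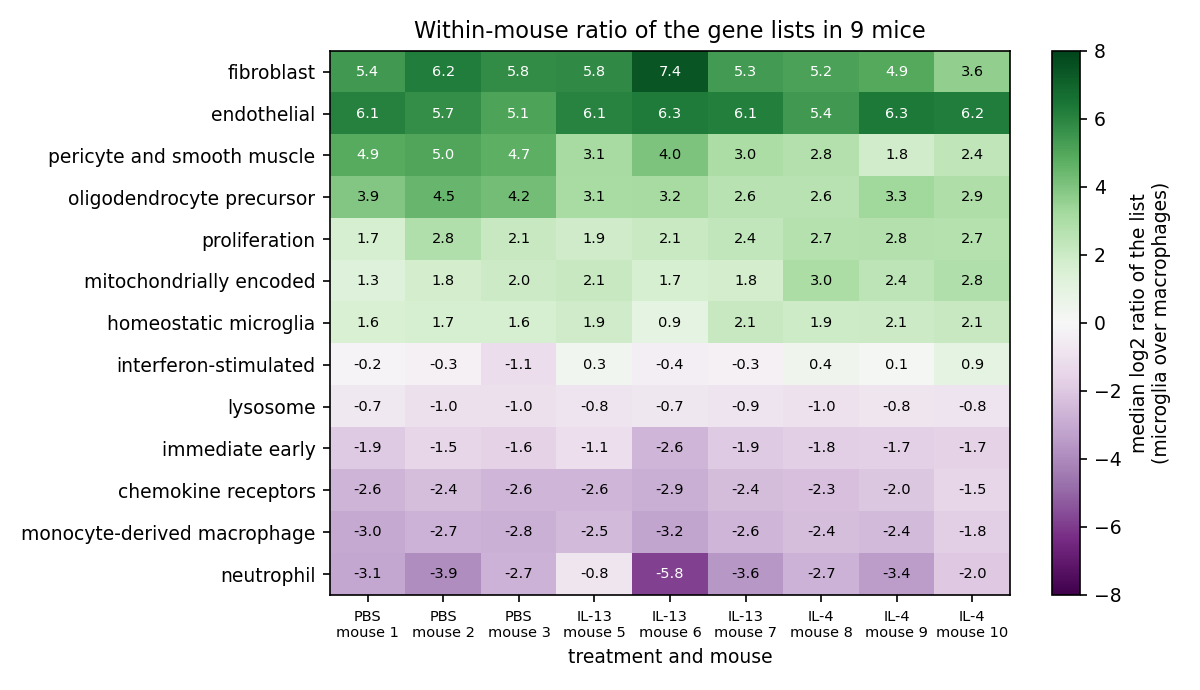
Median log2 ratio of microglia over macrophages within each of 9 mice (columns, by treatment) for 13 gene lists (rows), in green where microglia were higher and in purple where macrophages were higher. The homeostatic list lies between 0.91 and 2.15 in all mice, the fibroblast list between 3.6 and 7.4, and the interferon-stimulated list is negative in the 3 PBS mice, positive in the 3 IL-4 mice and of either sign in the 3 IL-13 mice.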

How the data were processed

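RNA from sorted cells was amplified and sequenced by SMART-seq2, which uses no molecular identifiers and keeps no strand. Per the submitters' processing notes and the deposited table, the authors aligned reads with STAR 2.5.3a and estimated gene counts with RSEM 1.3.0 on GRCm38. These deposited estimated counts are whole numbers. RSEM divides reads shared by near-identical genes.

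Here, 6 libraries of 3 mice were fitted with edgeR 4.0.16 (R 4.3.3), with cell type and mouse as terms, TMM scaling and edgeR's filter on low counts. The quasi-likelihood test was two-sided and p-values were adjusted by Benjamini-Hochberg over all genes tested. A floor of 3 counts per library stands for a count of 0 and covers counting error only. Both libraries of a mouse come from the same animal per the labels, and their deviations from the group means correlated with r = 0.13, 0.23 and 0.055 in mice 1, 2 and 3. Libraries of different mice gave r from -0.22 to 0.095. The highest of these, between microglia of mouse 3 and macrophages of mouse 1, lay above the value within mouse 3. The study's methods state no test of one cell type against the other.

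Genes were named by 4 rules: anchors of each cell type; the 12 lowest p in each direction; the 12 largest differences in each direction among called genes on no list of other cells with at least 100 CPM in the higher cell type; and up to 4 called genes of a list in each direction. Genes outside these rules, among them uncalled list members, the genes that follow a list and those with printed promoters, were chosen after their values were seen. The members and lists were chosen with earlier results of these data known. Gene positions are from GENCODE M21 and promoters from RefSeq, both on GRCm38, and 3 motifs were searched on both strands of the 250 bases before each start. Alternatives were another normalization (including DESeq2 1.42.0), test, filter and sample set. No pair of libraries held identical values across genes.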

Additional observations from a re-analysis of the deposited data

Results flagged for a closer look

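The direction of the interferon-stimulated list differed between the PBS and the IL-4 mice. The median within-mouse log2 ratio of microglia over macrophages over its 21 genes was -0.17, -0.31 and -1.14 in PBS mice 1, 2 and 3, so that it was lower in microglia in 3 of 3 mice, and 0.40, 0.14 and 0.94 in IL-4 mice 8, 9 and 10, so that it was higher in 3 of 3. IL-13 mice 5, 6 and 7 went both ways, at 0.26, -0.44 and -0.27. It drew attention because every PBS mouse lay on one side of 0 and every IL-4 mouse on the other. The difference between these treatments was not tested, and the sign of the PBS median also depends on the scaling.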

How the results depend on the processing

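The counts of called genes changed with the scaling, the samples fitted and the size of difference asked for. With library totals alone, 1397 genes were called higher in macrophages, 2 of them homeostatic microglia genes. With scaling on genes of the pan-myeloid list, chosen after seeing the data, 6246 genes were called higher in microglia and 872 in macrophages, 1 of these homeostatic, and Mertk (0.074) and Vsir (0.14) reversed without being called. Against a fold of 2, 2977 genes were called, 2235 higher in microglia and 742 in macrophages, again with 1 homeostatic gene. With all 18 libraries in a single model, 3980 genes were called, 2381 higher in microglia and 1599 in macrophages. With at least 10 counts in every library, 12 fibroblast and 4 pericyte genes were called, because 13 and 4 were left to test. Without the replicate block that pairs the libraries of a mouse, 6014 genes were called (3612 higher in microglia, 2402 in macrophages), 5628 of them shared with the 5912. Leaving out each mouse in turn gave 4434 to 5409 called genes, 2665 to 3115 higher in microglia and 1769 to 2294 in macrophages. Within the lists, these fits called 17 to 18 homeostatic genes higher in microglia and 3 to 5 in macrophages, 26 to 29 monocyte genes, 25 fibroblast, 14 pericyte and 18 endothelial genes. Of 97 genes tracked by name, all kept direction and call without the block, with DESeq2 size factors and with DESeq2's Wald test. The call was lost for 17 against a fold of 2, for 6 with all 18 libraries, for 2 with library totals, for 1 without replicate 1 and for 3 without replicate 2, and with scaling on pan-myeloid genes for 3 beside the 2 reversed. Where other counts or calls changed, the cause was not tested. The number of mice limits the precision of every estimate, and reads without molecular identifiers are not independent molecules.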
